A study of Homo sapiens with 3 samples.

Results

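The mRNAs of the kinetochore and of the spindle assembly checkpoint were examined in RNA immunoprecipitates of the RNA-binding protein MEX3A. The members were 47 gene names, chosen by gene symbol, and 46 of them were found among the 57820 genes of the deposited tables. CENPU is not a gene name of the tables; the row named MLF1IP, an older symbol of CENPU, was kept apart. The cells were of the ACHN line, established from a human renal cell carcinoma, with stable expression of MEX3A carrying a Flag tag, and they were fixed with 0.3% formaldehyde. An anti-Flag precipitate (the Flag library) was compared with a mock IgG precipitate (the IgG library), both from MEX3A-Flag cells and each with 1 library. The input RNA that the labels also list was not analysed here, so cellular RNA levels were not used and no untagged cells enter.

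Kinetochores are built on centromeric chromatin in layers. The inner layer, the constitutive centromere-associated network (CCAN), holds the CENP-A nucleosome; the outer layer, made of the KNL1, MIS12 and NDC80 complexes, grips spindle microtubules; and unattached kinetochores carry an expanded fibrous corona with the motor CENP-E, the scaffold CENP-F and the ROD-ZW10-Zwilch complex. Checkpoint kinases and MAD proteins delay anaphase until every kinetochore is attached, and the chromosomal passenger complex releases faulty attachments. Many of these genes are transcribed in the later part of the cell cycle, under the MuvB core, which joins RB family proteins in the DREAM complex.

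Short sequence elements known from cell cycle promoters were searched at the gene starts of the members, a feature that the choice by symbol did not use. RefSeq windows of build GRCh38.p14, with 250 bases before and 50 after the gene start, were matched for 38 of the 46 found members. The cell cycle genes homology region that MuvB binds (CHR, searched as TTTGAA or TTCGAA on both strands) lay in 19 of 38 windows, or 50%, against 13.5% of 15843 protein-coding windows and 16.6% of all 27305 windows. A CCAAT box was found in 22 members (57.9%), against 36.4% of protein-coding and 35.7% of all windows. An E2F-type element (searched as TTCCCGC and also as TTGGCGC and also as TTCGCGC and also as TTGCCGC) was found in 12 members (31.6%), against 17.1% of protein-coding and 13.1% of all windows. This result depends on the letters chosen. The same forms with a further T in front, which were searched first, lay in 2 members (5.26%), against 4.44% of protein-coding and 3.33% of all windows, and the shorter forms were taken after that result was seen. Matches on either strand were counted and overlaps between elements were allowed. The windows describe the genes, not the precipitated RNA. A match is no evidence of binding, and a window without one says only that these letters are absent from it.

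4 windows are printed 5′ to 3′ with matched letters in capitals. 2 belong to the members called depleted in the Flag library, CENPE and CENPF. The other 2 belong to SKA2 and SGOL1 (now named SGO1), of the 3 members called enriched under every setting tried. These calls, beyond 2-fold, are defined below. SGOL1 was chosen for print in place of AURKB after the matches had been seen, so the printed windows are examples and not a sample of the members. They lie at chr4:103198294-103198593 on the minus strand (CENPE), chr1:214602945-214603244 on the plus strand (CENPF), chr17:59155137-59155436 on the minus strand (SKA2) and chr3:20186157-20186456 on the minus strand (SGOL1).
CENPE: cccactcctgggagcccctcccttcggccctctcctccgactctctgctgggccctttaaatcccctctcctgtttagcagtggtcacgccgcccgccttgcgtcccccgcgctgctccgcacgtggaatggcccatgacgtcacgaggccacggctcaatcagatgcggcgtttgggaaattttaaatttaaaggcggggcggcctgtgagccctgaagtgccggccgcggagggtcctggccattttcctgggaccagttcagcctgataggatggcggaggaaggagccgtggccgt
CENPF: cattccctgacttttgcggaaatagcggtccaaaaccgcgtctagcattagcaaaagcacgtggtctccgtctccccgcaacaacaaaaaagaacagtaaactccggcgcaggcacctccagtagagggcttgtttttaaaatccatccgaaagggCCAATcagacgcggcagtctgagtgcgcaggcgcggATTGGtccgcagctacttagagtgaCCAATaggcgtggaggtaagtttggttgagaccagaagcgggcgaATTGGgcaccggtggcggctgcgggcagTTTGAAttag
SKA2: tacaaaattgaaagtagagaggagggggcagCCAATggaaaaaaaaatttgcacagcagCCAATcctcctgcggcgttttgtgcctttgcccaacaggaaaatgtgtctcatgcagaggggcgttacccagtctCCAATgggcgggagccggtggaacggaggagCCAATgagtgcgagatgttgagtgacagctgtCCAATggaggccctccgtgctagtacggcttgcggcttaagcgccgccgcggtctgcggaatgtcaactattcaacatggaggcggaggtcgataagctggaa
SGOL1: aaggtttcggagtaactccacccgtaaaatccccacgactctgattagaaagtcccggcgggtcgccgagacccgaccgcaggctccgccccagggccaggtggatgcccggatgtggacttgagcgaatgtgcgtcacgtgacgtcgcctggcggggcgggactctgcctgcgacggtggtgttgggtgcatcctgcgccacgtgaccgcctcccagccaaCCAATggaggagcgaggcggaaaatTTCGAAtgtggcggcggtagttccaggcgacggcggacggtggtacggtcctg
The CENPE window held 0 matches, the CENPF window a CHR and 4 CCAAT boxes among its 5 matches, the SKA2 window 5 CCAAT boxes, and the SGOL1 window a CHR beside the gene start and a CCAAT box, 2 matches in all.

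Rounded expected counts, estimated reads per gene, added up to 5498124 for Flag and 3412864 for IgG. Levels are given as counts scaled to these totals (CPM), or as the deposited TPM where genes are compared per length. Each ratio, Flag CPM over IgG CPM, carries an exact 95% interval that covers counting error only. A gene entered if its counts in both libraries added up to at least 20. It was called enriched if its interval lay wholly above 2 and depleted if wholly below 0.5. With 1 library per group there is no replicate check and no p-value, so a call holds for this pair of libraries alone. The renal transcription factor gene PAX8 had 2532 Flag counts and 1049 IgG counts. PTPRC, CD3E, CDH5, ALB and DES, which mark blood, endothelial, liver and muscle cells, had 0 in both, which bounds their level at 0.546 CPM (Flag) and 0.879 CPM (IgG), and the endothelial gene VWF had 9 Flag counts and 0 IgG counts.

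Of the 46 members, 44 entered, 13 were enriched, 2 were depleted and 29 were neither. Among all 10811 genes that entered, 28.7% were enriched and 1.32% depleted, so the enriched share of the members, 29.5%, lay near the background. The members' median log2 ratio was 0.75, against 0.95 for all genes, and 22 members lay above the median gene and 22 below it. The counts of calls depend on the scaling. With TMM scaling, which lowered every log2 ratio by 0.78, 5 members were enriched and 5 depleted, against 12.0% and 6.12% of all genes. Median-of-ratios scaling gave 4 enriched and 5 depleted, against 11.7% and 6.24%. With the same factors computed from entered genes only, TMM gave 4 and 5 (9.94% and 7.53% of all genes) and median-of-ratios 4 and 6 (9.62% and 7.77%). Totals that leave out mitochondrial genes and the 10 genes with most counts gave 11 and 3 (22.3% and 2.11%). By table totals, 23 members had intervals wholly above 1 and 7 wholly below, beside 6282 and 972 of all genes, and these counts hold for that scaling only. Positions relative to the median gene do not move with the scaling. CENPK, SGOL1, ZWILCH, MAD2L1 and SKA2 were the members enriched with TMM scaling, and the other enriched members named below lost their call there.

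Calls under other filters and thresholds are given with the share over all genes in parentheses. At least 100 counts left 25 members, of which 9 were enriched and 2 depleted (37.9% and 1.62% of all genes). With no filter 13 of 46 were enriched and 2 depleted (18.7% and 1.26%), and with whole counts only 13 of 42 and 2 (29.2% and 1.16%). An interval beyond 1.5-fold gave 17 and 3 (40.0% and 2.76%), one beyond 4-fold 4 and 0 (8.55% and 0.222%), and a 99% interval 10 and 2 (23.5% and 1.06%). TPM with 1 added put 16 members past 2-fold higher and 2 lower (37.7% and 4.96%). CENPP, with 6 Flag counts and 9 IgG counts, and CENPV, with 10 Flag counts and 5 IgG counts, did not enter.

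**Figure D1:**
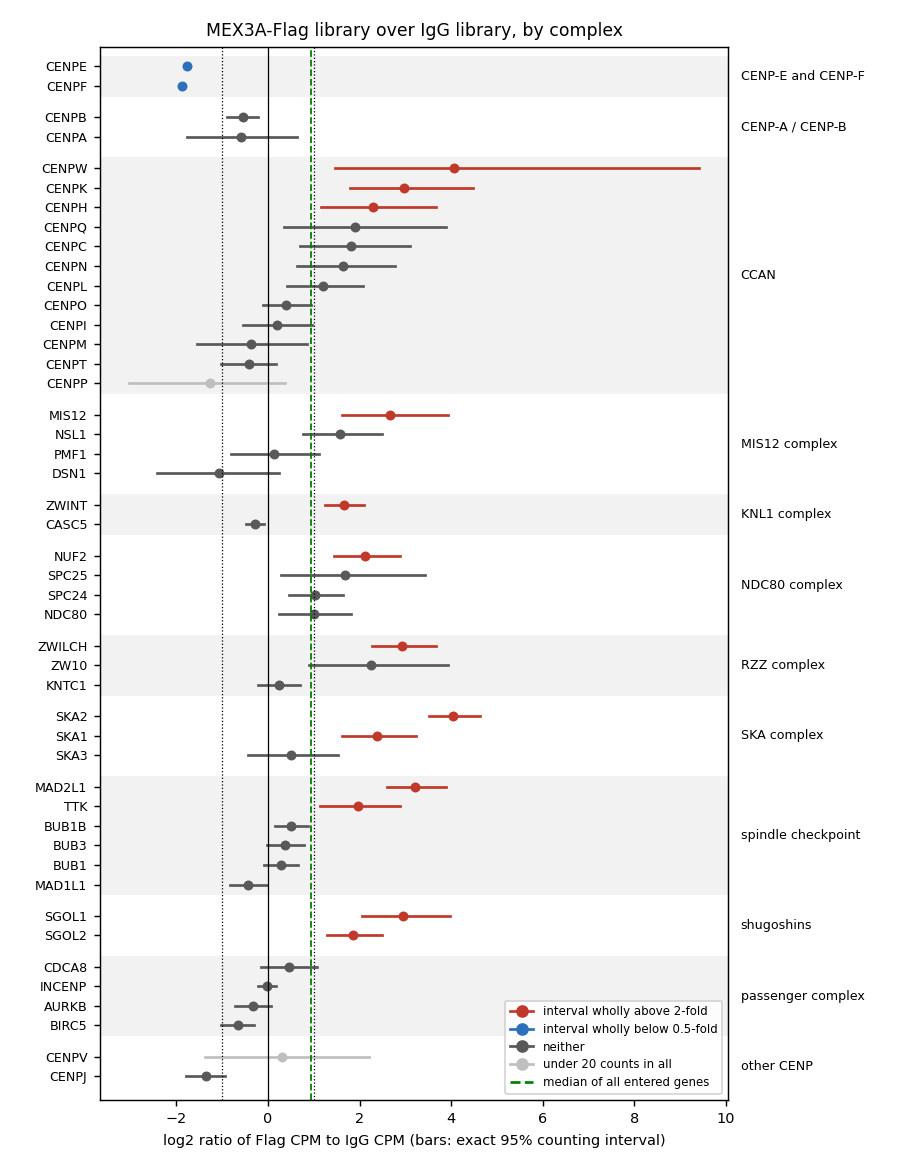
log2 ratio of CPM, Flag over IgG, for the 46 members by complex (points), with exact 95% counting intervals (bars); solid line at 0, dotted lines at 2-fold, dashed line at the median of all entered genes (0.95). The points of CENPE and CENPF lie furthest left, though the wide intervals of CENPP and DSN1 reach past both. The enriched members are spread over most complexes, and all 4 passenger complex members lie left of the dashed line.

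CENPE and CENPF stood apart from every other member in abundance. CENPF, whose product links kinetochores and microtubules, had 138002 counts (25100 CPM) in the Flag library, against 312928 counts (91691 CPM) in the IgG library. CENPE, the plus-end-directed kinesin that aligns chromosomes, had 65451 counts (11904 CPM) in the Flag library, against 138315 counts (40528 CPM) in the IgG library. CENPF was the gene of rank 4 by counts in the Flag library and rank 2 in the IgG library, and CENPE was rank 5 in both. Together they took up 3.70% of the Flag total (95% Clopper-Pearson interval 3.68 to 3.72) and 13.2% of the IgG total (13.2 to 13.3). The 44 other found members took up 0.106% with Flag and 0.0660% with IgG.

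CENPE and CENPF were both depleted, by nearly the same factor. The share of CENPF was lower with Flag by 3.65-fold (3.63 to 3.68) and that of CENPE by 3.40-fold (3.37 to 3.44). Relative to the median gene, which does not depend on the scaling, CENPF lay 7.03-fold and CENPE 6.56-fold below. Only 0.962% of all entered genes had a lower ratio than CENPF and 1.20% a lower ratio than CENPE. Counts of CENPF were 2.11 times those of CENPE in the Flag library and 2.26 times in the IgG library. TPM gave ratios of 0.266 for CENPF and 0.294 for CENPE. Of the other 42 members that entered, 39 had intervals wholly above those of both genes. That share was not computed for all genes, most of which also had higher ratios than both, so it is no trait of the members.

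**Figure D2:**
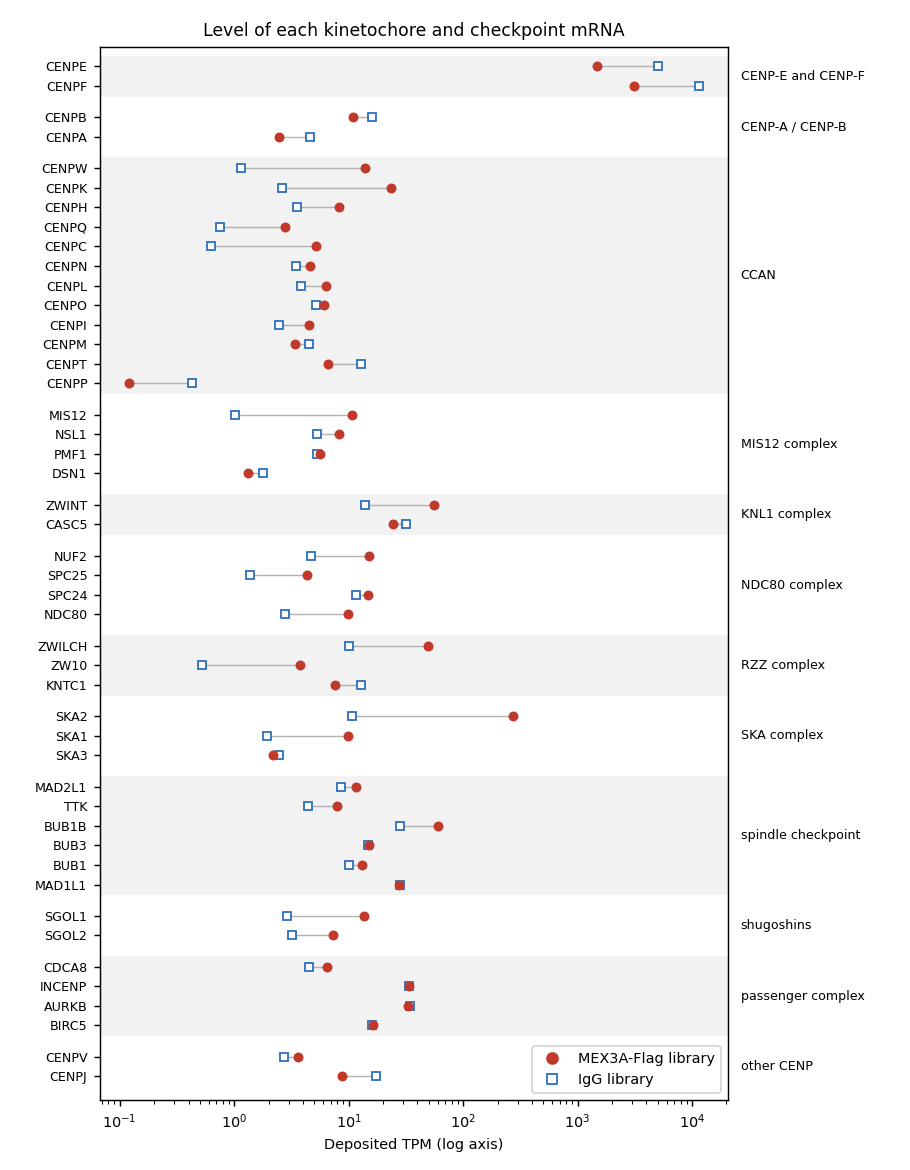
Deposited TPM of the 46 members on a log axis, grouped by complex, in the Flag library (filled circles) and the IgG library (open squares). CENPE and CENPF lie between 1476 and 11614 TPM, and every other member lies at or below 275 TPM.

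CENPE and CENPF also had the highest levels per length. CENPF had 3090 TPM in the Flag and 11614 TPM in the IgG library, and CENPE 1476 TPM in the Flag and 5025 TPM in the IgG library. Among the other entered members TPM ran between 1.33 (DSN1) and 275 (SKA2) in the Flag library, with a median of 9.28, and between 0.52 (ZW10) and 34.2 (AURKB) in the IgG library, with a median of 4.67. After SKA2, the members with the highest levels in the Flag library were BUB1B (60.2 TPM), ZWINT (56.0 TPM) and ZWILCH (49.3 TPM). In the IgG library AURKB was followed by INCENP (33.7 TPM) and CASC5 (31.7 TPM).

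CENPE and CENPF were also the longest members that entered, at mean deposited lengths of 8169 and 8114 nt. Among members, classes of shorter deposited length had the higher median ratios, and among all genes the order was the reverse. Deposited length is an average over transcripts made for each library, so it need not equal the length of the full mRNA. The 26 entered members under 2000 nt had a median log2 ratio of 1.39 and the 16 between 2000 and 5000 nt one of 0.43. CENPE and CENPF, the only entered members over 5000 nt by mean deposited length, averaged -1.82. For all genes the medians in the same classes were 0.70 (5247 genes), 1.15 (4667 genes) and 1.24 (897 genes). By counts, the median short member thus lay above, and that of both longer classes below, the median gene of the same length class. With TPM the medians were 0.77 for short members and 0.40 for the middle class, against 0.57 and 0.97 for all genes. Short members thus lay closer to both their length class and the middle members than by counts. CENPE and CENPF stood at -1.84 by TPM, against 1.17 for all genes over 5000 nt.

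Of the short members 9 were enriched and 0 depleted, against 22.3% and 1.01% of all genes under 2000 nt. In the middle class 4 were enriched and 0 depleted, against 33.7% and 0.986%. Among genes over 5000 nt 39.4% were enriched and 4.91% depleted, and 3.68% had a lower ratio than CENPE. Of the 26 short members, 23 had intervals wholly above both CENPE and CENPF. That share was not computed for all genes under 2000 nt, so the count is no trait of the short members. Only 1.20% of all entered genes had a lower ratio than CENPE. By counts, the median ratio of short members was 9.23 times the geometric mean ratio of CENPE and CENPF under any scaling of the totals. On the log2 scale this difference, CENPE and CENPF minus short members, was -3.21 by counts, but -2.61 and -2.50 by TPM with 0.1 and 1 added. Across the 44 members log2 ratio and log2 length had a Pearson's r of -0.44 and a Spearman's rho of -0.29. Without CENPE and CENPF these were -0.28 and -0.19 (42 members), and across all 10811 genes 0.15 and 0.18. These are descriptions across genes measured in the same 2 libraries.

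**Figure D3:**
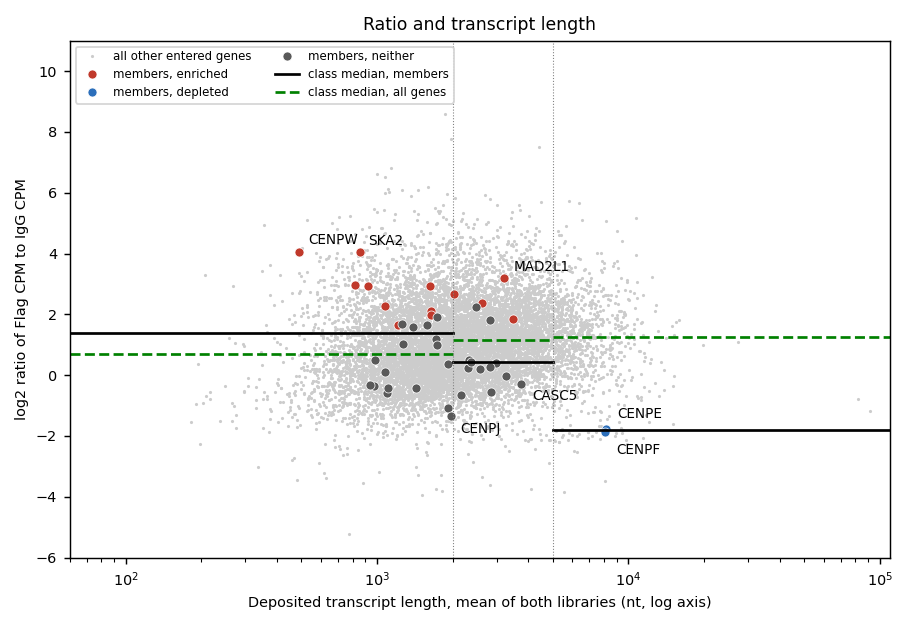
log2 ratio of CPM, Flag over IgG, against deposited transcript length (log axis) for the 44 entered members (coloured by call) and all other entered genes (grey). Solid bars are class medians of the members (1.39, 0.43 and -1.82) and dashed bars those of all genes (0.70, 1.15 and 1.24).

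CENPE and CENPF were set beside other abundant genes. With 203766 and 450930 counts over both libraries, they lay far above the limit used. A gene high in 1 library alone could also pass that limit. At a minimum of 10000 counts over both libraries, a limit chosen after the values were seen, 65 genes remained, CENPE and CENPF included, of which 46.2% were depleted and 30.8% enriched, beside 1.32% and 28.7% of all genes. Of the 32 that were also over 5000 nt, again with CENPE and CENPF, 23 were depleted, and the median log2 ratio was -1.79 over the 32, beside -1.87 for CENPF and -1.77 for CENPE. The part of length and of abundance in the ratios of CENPE and CENPF was not tested.

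At the inner kinetochore, the CENP-A nucleosome and the CENP-B protein that binds alphoid DNA had mRNAs near or below equal share. CENPA had 14 counts in Flag against 13 in IgG, giving a ratio of 0.668 (0.291 to 1.54). CENPB had 160 counts in Flag against 146 in IgG, giving a ratio of 0.680 (0.540 to 0.857). CENPB was thus lower in the Flag library beyond counting error, while the interval of CENPA included 1, and neither was called.

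CCAN mRNAs were mixed. Of 11 that entered, 3 were enriched and 0 depleted, beside 28.7% and 1.32% of all genes. The summed counts of all 12 found, CENPP included, were 561 in the Flag and 191 in the IgG library. Their ratio of 1.82 (1.54 to 2.16) was close to that of the median gene, 1.93. CENPK had 76 counts in Flag against 6 in IgG, giving a ratio of 7.86 (3.45 to 22.1). Its neighbour in the CENP-H/I/K/M group, CENPH, had 55 counts in Flag against 7 in IgG, giving a ratio of 4.88 (2.22 to 12.7). The other 2 subunits of that group were not called, at 1.14 for CENPI (46 Flag and 25 IgG counts) and 0.776 for CENPM (15 Flag and 12 IgG counts).

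CENPT and CENPW, histone-fold partners that bind DNA together, had unlike ratios. CENPW had 27 counts in Flag against 1 in IgG, giving a ratio of 16.8 with a wide interval (2.76 to 686), and was enriched. CENPT had 54 counts in Flag against 45 in IgG, giving a ratio of 0.745 (0.492 to 1.13). CENPC, the scaffold that reaches from the nucleosome to the outer kinetochore, had 45 counts in Flag against 8 in IgG, giving a ratio of 3.49 (1.63 to 8.58) and no call. CENPL (2.30), CENPN (3.10, with fractional counts) and CENPQ (3.72) had intervals above 1 without being called, and CENPO (1.32, with fractional counts) had one that included 1. MLF1IP, the row kept apart, had 70 counts in Flag against 16 in IgG, giving a ratio of 2.72 (1.56 to 5.01). Some of these genes overlap others in the GRCh38.p14 annotation, CENPO with ADCY3 (154 Flag and 48 IgG counts) and CENPT with NUTF2 (83 Flag and 59 IgG counts).

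In the outer kinetochore, partners within the KNL1 and MIS12 complexes had unlike ratios, while subunits of the NDC80 complex lay closer together (1.99 to 4.35). The KNL1 complex pairs the scaffold KNL1, encoded by CASC5, with ZWINT. ZWINT had 280 counts in Flag against 55 in IgG, giving a ratio of 3.16 (2.36 to 4.30), and was enriched. CASC5 had 499 counts in Flag against 378 in IgG, giving a ratio of 0.819 (0.715 to 0.939). The ratio of ZWINT was 3.86 times that of CASC5, and their intervals did not overlap. Over all entered genes the quartiles of the log2 ratio were 0.10 and 1.88. How often other pairs of genes differ by as much was not computed.

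The MIS12 complex joins the inner to the outer layer. MIS12 had 82 counts in Flag against 8 in IgG, giving a ratio of 6.36 (3.08 to 15.2), and was enriched. DSN1 had 10 counts in Flag against 13 in IgG, giving a ratio of 0.477 (0.187 to 1.18) and no call. NSL1 (72 Flag and 15 IgG counts, ratio 2.98, 1.69 to 5.60) and PMF1 (28 Flag and 16 IgG counts, ratio 1.09) lay between them. The readthrough gene PMF1-BGLAP had 0 counts in both libraries. DERL2, which overlaps MIS12 in the GRCh38.p14 annotation, had 34 Flag counts and 10 IgG counts, and the strand setting is not given in the sources used here.

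All 4 subunits of the NDC80 complex, the microtubule-binding rod, had ratios between 1.99 and 4.35, with intervals above 1, as had 6282 of all 10811 genes. NDC80 and SPC24 lay near the median gene at 1.93, and with TMM scaling their ratios were 1.16 and 1.20. NUF2 had 140 counts in Flag against 20 in IgG, giving a ratio of 4.35 (2.71 to 7.33), and was the enriched one. Its dimer partner NDC80 had 61 counts in Flag against 19 in IgG, giving a ratio of 1.99 (1.17 to 3.53). The other dimer was similar in range, with SPC24 at 2.05 (109 Flag and 33 IgG counts) and SPC25 at 3.23 (26 Flag and 5 IgG counts). The summed counts of the complex gave a ratio of 2.71 (2.11 to 3.52).

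The SKA complex, which couples kinetochores to shortening microtubules, had the highest summed ratio of any complex, 9.98 (7.69 to 13.2). SKA2 accounted for most of it, with 799 Flag counts (145.3 CPM) and 30 IgG counts (8.79 CPM), a ratio of 16.5 (11.5 to 24.7), or 8.59-fold above the median gene. SKA1 had 134 counts in Flag against 16 in IgG, giving a ratio of 5.20 (3.09 to 9.36), and was enriched too. SKA3 had 32 counts in Flag against 14 in IgG, giving a ratio of 1.42 (0.736 to 2.88) and no call. The SKA2 pseudogene SKA2P1 and the microRNA genes MIR454 and MIR301A, which lie within SKA2, had 0 counts in both libraries.

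The ROD-ZW10-Zwilch complex recruits dynein and the MAD proteins to unattached kinetochores. ZWILCH had 246 counts in Flag against 20 in IgG, giving a ratio of 7.64 (4.84 to 12.7), and was enriched. KNTC1, which encodes ROD, had 120 counts in Flag against 63 in IgG, giving a ratio of 1.18 (0.865 to 1.63), while TPM gave 0.595. ZW10 had 38 counts in Flag against 5 in IgG, giving a ratio of 4.72 (1.85 to 15.4), just short of a call. The intervals of ZWILCH and KNTC1 did not overlap, and how often this holds for other pairs of genes was not computed.

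Among checkpoint genes, the ratios of the BUB and MAD genes depended on the scale. BUB1 (186 Flag and 95 IgG counts), BUB1B (213 Flag and 93 IgG counts) and BUB3 (162 Flag and 78 IgG counts), which encode the kinase, BUBR1 and their shared WD40 partner, had count ratios of 1.22, 1.42 and 1.29 and TPM ratios of 1.30, 2.12 and 1.02. By counts, all 3 lay below the median gene, and only the interval of BUB1B (1.11 to 1.83) lay above 1. MAD2L1, which encodes the MAD2 protein that blocks CDC20, had 341 counts in Flag against 23 in IgG, giving a ratio of 9.20 (6.03 to 14.7), and was enriched, though TPM gave 1.34. MAD1L1, which encodes the MAD1 platform for MAD2, had 121 counts in Flag against 101 in IgG, giving a ratio of 0.744 (0.566 to 0.978), and TPM gave 0.998. The ratio of MAD2L1 was thus 12.4 times that of MAD1L1 by counts and 1.34 times by TPM. TTK, the MPS1 kinase that starts the checkpoint, had 88 counts in Flag against 14 in IgG, giving a ratio of 3.90 (2.21 to 7.43), and was enriched, though TPM gave 1.78.

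Both shugoshin genes, whose products protect centromeric cohesion, were enriched, beside 28.7% of all genes. SGOL1 had 136 counts in Flag against 11 in IgG, giving a ratio of 7.67 (4.16 to 15.7). SGOL2 had 164 counts in Flag against 28 in IgG, giving a ratio of 3.64 (2.42 to 5.64). The antisense gene SGOL1-AS1 had 0 counts in both libraries.

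None of the 4 chromosomal passenger complex genes was enriched, beside 28.7% of all genes. All 4 lay below the median gene, as did 5405 of all 10811 genes. With only 4 genes, neither agreement with these shares nor a difference from them can be shown. The scaffold gene INCENP had 570 counts in Flag against 358 in IgG, giving a ratio of 0.988 (0.864 to 1.13). The kinase gene AURKB had 125 counts in Flag against 98 in IgG, giving a ratio of 0.792 (0.603 to 1.04). BIRC5, which encodes survivin, had 136 counts in Flag against 134 in IgG, giving a ratio of 0.630 (0.493 to 0.806), and CDCA8, which encodes borealin, had 77 counts in Flag against 35 in IgG, giving a ratio of 1.37 (0.905 to 2.10). Their summed counts gave 0.902 (0.814 to 1.00). With TPM, AURKB (0.972), BIRC5 (1.03) and INCENP (0.998) all had ratios close to 1.

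CENPJ encodes a centriole protein in spite of its name. It had 76 counts in Flag against 121 in IgG, giving a ratio of 0.390 (0.289 to 0.524), the lowest of the 26 short members and just short of a depleted call. With TMM scaling CENPJ, CENPB and BIRC5 were depleted beside CENPE and CENPF. TPM gave CENPJ a ratio of 0.502.

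The deposited length of a gene is an average over its transcripts made for each library, and for 16 of the 44 members it differed by over 1.5-fold between the libraries. Count and TPM ratios differed by over 2-fold for 5 members (11.4%), against 13.0% of all genes. MAD2L1 differed most. It was given 5468 nt in the Flag library and 961 nt in the IgG library, with 11.6 TPM in the Flag and 8.65 TPM in the IgG library, so that its TPM ratio was 1.34 and no longer past 2-fold. TTK was given 2184 nt in the Flag and 1111 nt in the IgG library and had a TPM ratio of 1.78. CENPH (TPM ratio 2.30) and CENPN (1.32) moved the same way, and CENPC, at 1755 nt in the Flag and 3885 nt in the IgG library, moved to 7.22.

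For the other enriched members TPM gave ratios over 2, from 2.24 for SGOL2 to 25.3 for SKA2, so that 11 of 13 were past 2-fold on both scales. In all, TPM put 17 members past 2-fold higher and 2 past 2-fold lower, against 44.2% and 6.59% of all genes. NDC80 (3.44), ZW10 (6.29), CENPC, CENPQ (3.40), SPC25 (3.03) and BUB1B (2.12) were past 2-fold by TPM without being called from counts. Across the 44 members the log2 ratios of counts and TPM had a Pearson's r of 0.89 and a Spearman's rho of 0.90, with the reads of each library shared between the scales. Whether different transcripts were captured, or the reads of few counts were divided differently, was not tested.

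**Figure D4:**
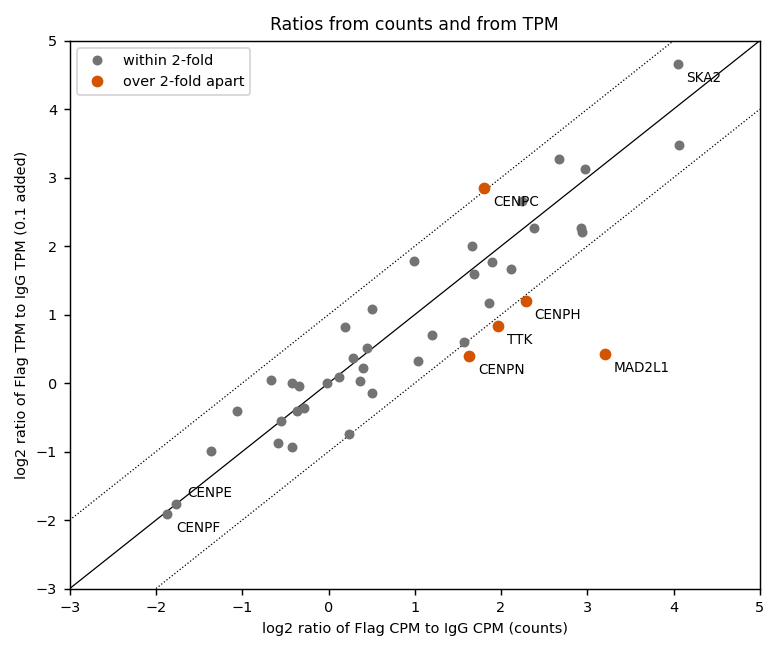
log2 ratio of Flag TPM to IgG TPM, with 0.1 added, against log2 ratio of CPM, Flag over IgG, for the 44 entered members; solid line, equal ratios; dotted lines, 2-fold apart. MAD2L1, TTK, CENPH and CENPN lie below the dotted band and CENPC above it, while CENPE, CENPF and SKA2 lie within it.

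Other kinetochore and anaphase genes were described by the same calls. Of 48 such genes 45 entered, 8 (17.8%) were enriched and 1 (2.22%) depleted, beside 28.7% and 1.32% of all genes, and the median log2 ratio was 0.53. The highest ratio was that of APITD1, which encodes the CCAN subunit CENP-S, with 326 Flag counts and 10 IgG counts (20.2, 10.9 to 42.6, with fractional counts). The anaphase-promoting complex genes CDC26 (126 Flag and 9 IgG counts, ratio 8.69, with fractional counts) and CDC27 (624 Flag and 63 IgG counts, ratio 6.15) came next, though TPM gave CDC27 a ratio of 1.79. At the other end were ANAPC15 (7 Flag and 26 IgG counts, ratio 0.167, 0.0612 to 0.395), which was depleted, and ANAPC2 (0.537) and CCNB1 (0.575), which were not called. The checkpoint's target CDC20 had 140 counts in Flag against 110 in IgG, giving a ratio of 0.790, and PLK1, a mitotic kinase gene, one of 0.718.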

How the data were processed

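Per the file headers, the deposited expected counts, TPM and FPKM have the columns of RSEM gene output. The submitters' processing notes name STAR, RSEM, GRCh37 and hg19 without versions or roles; annotation, read filters and strandedness were not given in the sources used here. The deposited expected counts are unnormalized, the deposited TPM correct for effective length, and the deposited FPKM were not used. Deposited lengths are averages over transcripts made per library.

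Expected counts were rounded and divided by table totals. Intervals are exact 95% Clopper-Pearson (scipy 1.17.1), for genes with at least 20 counts, with 0 set to a floor of 3 in ratios. No molecular identifiers are named in the sources, so these limits describe counting error and nothing else. The calculation was tested on simulated counts that carry counting error only, as the intervals assume. That test checks the calculation and says nothing about variation between libraries. Counts were called whole within 0.01; CENPN, CENPO and CENPP had fractional ones. Members, lists, length classes and the rule for named genes (called members, extremes per length class, members whose TPM and counts disagree, at least 1 per complex, 3 at each end of the other list) were chosen with earlier results of these data known. edgeR 4.0.16 and DESeq2 1.42.0 were used for scaling only; factors were first computed from entered genes, then from all genes after that result was seen. Both precipitates came from MEX3A-Flag ACHN cells in bulk, so differences between single cells cannot be seen.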

Additional observations from a re-analysis of the deposited data

How the results depend on the processing

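No paired analysis was possible because each group has 1 library, and no library could be left out. The settings and the description that use protein length or composition were not run, since no protein sequences were used here. In place of 13 enriched and 2 depleted members, TMM scaling gave 5 and 5, median-of-ratios scaling 4 and 5, TMM from entered genes 4 and 5, median-of-ratios from entered genes 4 and 6, and a 4-fold threshold 4 and 0. Over all genes, calls numbered 1293 and 662, 1269 and 675, 1075 and 814, 1040 and 840, and 924 and 24 in the same order, in place of 3100 and 143, and TPM put 4780 and 712 past 2-fold. The factors from entered genes were tried first and replaced after their result was seen.

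The members' median log2 ratio, 0.75, became -0.027, -0.039, -0.15 and -0.16 under those 4 scalings, 0.52 with totals that leave out mitochondrial and the 10 most abundant genes, 0.47 and 0.42 with TPM (0.1 and 1 added), 0.40 at 100 counts and 0.51 with no filter. In the order of the 5 scalings, CENPE had -2.55, -2.56, -2.67, -2.68 and -2.00, CENPF had -2.65, -2.66, -2.77, -2.78 and -2.11, and short members had 0.61, 0.60, 0.49, 0.47 and 1.15, which is the shift of the scaling itself. TPM gave CENPF -1.91 with either pseudocount, short members 0.77 and 0.66, and a difference between CENPE with CENPF and short members of -2.61 and -2.50 in place of -3.21. No filter, and whole counts only, changed which members were in the list and gave short members 1.20 and a difference of -3.02. SKA2, ZWILCH and SGOL1 were enriched under all 13 settings that bear on calls, and CENPE and CENPF were depleted under all but the 4-fold threshold. TTK kept its call in 4 of 13. Depth limits the low members: CENPW rests on 1 IgG count, and 19 entered members had fewer than 100 counts.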
